A study of Mus musculus with 4 samples.

Results

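Capillary-venous endothelial cells line the smallest vessels of the brain and the venules into which they drain. In whole-brain single-cell libraries of 4 mice they were selected by a fixed set of detected genes, and 946 of the 10067 cells that passed the cell filter met it, out of 12487 deposited barcodes. A gene counted as detected in a cell when at least 1 unique molecular identifier (UMI, a tag that marks a single captured RNA molecule) was assigned to it. A cell needed at least 400 detected genes and at most 20% mitochondrial UMIs. It then needed at least 3 of 8 pan-endothelial genes (Cldn5, Flt1, Ly6c1, Pecam1, Slco1a4, Itm2a, Cdh5, Ly6a) and at most 1 of 8 genes of pericytes, microglia, oligodendrocytes and astrocytes (Kcnj8, Abcc9, Vtn, Rgs5, Higd1b, Tmem119, Mog, Aqp4). It finally needed at least 2 of the 5 capillary-venous genes Slc38a5, Car4, Ndnf, Slc7a1 and Hmcn1, and more of these than of the 5 arterial genes Gkn3, Sema3g, Igfbp3, Edn1 and Slc26a10. The endothelial part of the rule alone held 1755 cells, and the mirrored rule with the arterial genes gave 134 arterial-type cells for comparison.

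All mice were male C57BL/6J animals at postnatal day 90, and each whole brain gave 1 library on the droplet platform of 10x Genomics. Brains were dissociated with enzymes, and a gradient removed debris without any sorting of cells. In 2 animals no inhibitors were present. In the other 2, actinomycin D and triptolide, which block transcription, were present during perfusion, dissection and digestion, and anisomycin, which blocks translation, was added for dissection and digestion. The labels place all 4 libraries in 1 batch. Per-animal values below are given in the order no inhibitors 1, no inhibitors 2, inhibitors 1 and inhibitors 2.

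Brain endothelial cells form the blood-brain barrier. Their tight junctions close the path between cells, so nutrients cross through carriers, and large proteins cross by receptor-mediated uptake. Along the vascular tree the cells change gradually from arterial to capillary to venous states: Notch signalling genes mark the arterial end, most nutrient carriers and the transferrin receptor mark capillaries and the venous side, and the transcription factor Nr2f2 (COUP-TFII) and adhesion molecules for leukocytes mark venules. Of the selecting genes, Slc38a5 is a glutamine and neutral amino acid carrier, Slc7a1 a cationic amino acid carrier, and Car4 a carbonic anhydrase anchored at the cell surface. Hmcn1 encodes the extracellular matrix protein hemicentin-1, Ndnf a secreted neurotrophic factor, and Itm2a a membrane protein abundant in brain endothelium. In the mouse genome build GRCm38, Slc38a5 lies at chrX:8271133-8280179 and Car4 at chr11:84957786-84966044, both on the plus strand.

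The libraries gave 171, 258, 195 and 322 members, with 379878, 707362, 528483 and 775854 UMIs in all. Median depth was 1869, 2215, 2230 and 1884 UMIs per member, and median mitochondrial shares lay between 5.24% and 5.52%. Only 1 barcode occurred in members of more than 1 library, and 67 did over all deposited barcodes. Compared pair by pair with a chi-square test of member counts over genes, the libraries gave 1.46 to 3.48 per degree of freedom, so no library repeated another within counting noise, which is all that this comparison covers.

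The genes that chose the cells are described here without a test. Itm2a was detected in 98.6% of members, Car4 in 90.8%, Slc7a1 in 73.4%, Hmcn1 in 59.2%, Slc38a5 in 32.3% and Ndnf in 23%. Most members therefore qualified through Car4 with Slc7a1, which 621 members held together, or Car4 with Hmcn1, which 486 held together, whereas 98 held both Slc38a5 and Ndnf. Exactly 2 of the 5 genes were detected in 447 members, 3 in 302, 4 in 148 and all 5 in 49. In cells outside the endothelial rule, Slc38a5 was seen in 1.02% and Car4 in 6.34%. Whether this was stray RNA or expression in those cells was not tested. The median depth of all cells that passed the filter was 1452 to 1694 UMIs.

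Depth moved with the number of capillary-venous genes. Members with 2 of the 5 genes had a median of 1689 UMIs, and those with 3 or more had 2515. Just outside the rule, 284 cells with 1 capillary-venous gene and no arterial gene had a median of 1358.5 UMIs. Slc16a1, which encodes the monocarboxylate carrier MCT1 and was not part of the rule, stood at 216 CPM (UMIs of a gene per 1e6 UMIs) in members with 2 genes and at 251 CPM in those cells just outside. Tfrc, the transferrin receptor, stood at 266 CPM inside and 172 CPM just outside. A further 35 cells with 2 capillary-venous genes were left out because they held as many or more arterial genes, and in them Tfrc was at 77.2 CPM.

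The share of members with a Slc38a5 UMI was 36.3%, 23.6%, 43.6% and 30.4% in the 4 animals. With each cell thinned to 1000 UMIs, and 12, 10, 16 and 29 shallower cells left out, the shares were 23.3%, 9.68%, 22.3% and 20.1%. The animal no inhibitors 2 had the lowest share at both depths, and the other 3 lay close together after thinning.

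Markers of other cells were low, with exceptions. The 13 endothelial markers summed to between 28166 and 29113 CPM in every animal. Of these 13, 8 belong to the rule, as do 5 of the 12 pericyte markers and 1 marker each of microglia, oligodendrocytes and astrocytes. Those sums were therefore partly set by the selection. Summed markers of pericytes lay between 170 and 258 CPM, those of smooth muscle between 37.4 and 47.3, of fibroblasts between 5.26 and 17.0, and of neurons between 60.8 and 138. Microglial markers lay between 458 and 839 CPM, astrocytic ones between 845 and 1330, and oligodendrocytic ones between 1097 and 1532. The fenestrated list summed to between 5088 and 5902 CPM, of which Cldn5, a gene of the endothelial rule that stands on this list too, gave 4891 to 5735. Of its other 7 genes, Esm1 and Gpihbp1 were at 0 and Plvap was at 0 in 3 of 4 animals. Erythrocyte genes, mostly haemoglobin, summed to 37667 and 58823 CPM without inhibitors and to 24046 and 18029 CPM with them, and choroid plexus genes, mostly Ttr, to 14957 CPM in no inhibitors 1 against 1391 to 2917 in the other 3 animals.

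Against arterial-type cells of the same animals, capillary-venous cells carried more of several nutrient carriers, of the transferrin receptor and of metallothioneins. They carried less of several Notch genes and of most tested arterial genes. Sums per animal were compared with edgeR's quasi-likelihood test with the animal as a block, and a call needed a log2 fold change beyond 0.58 in either direction together with an adjusted p (Benjamini-Hochberg) below 0.05. Of 4256 genes tested, 129 were called higher in capillary-venous cells (3.03% of genes tested) and 193 lower (4.53%). The median log2 fold change over all tested genes was 0.01. The arterial-type sums were smaller, from 72079 to 145341 UMIs over 20 to 45 cells per animal, and their values are the less precise ones. Levels below are CPM after TMM scaling.

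**Figure D1:**
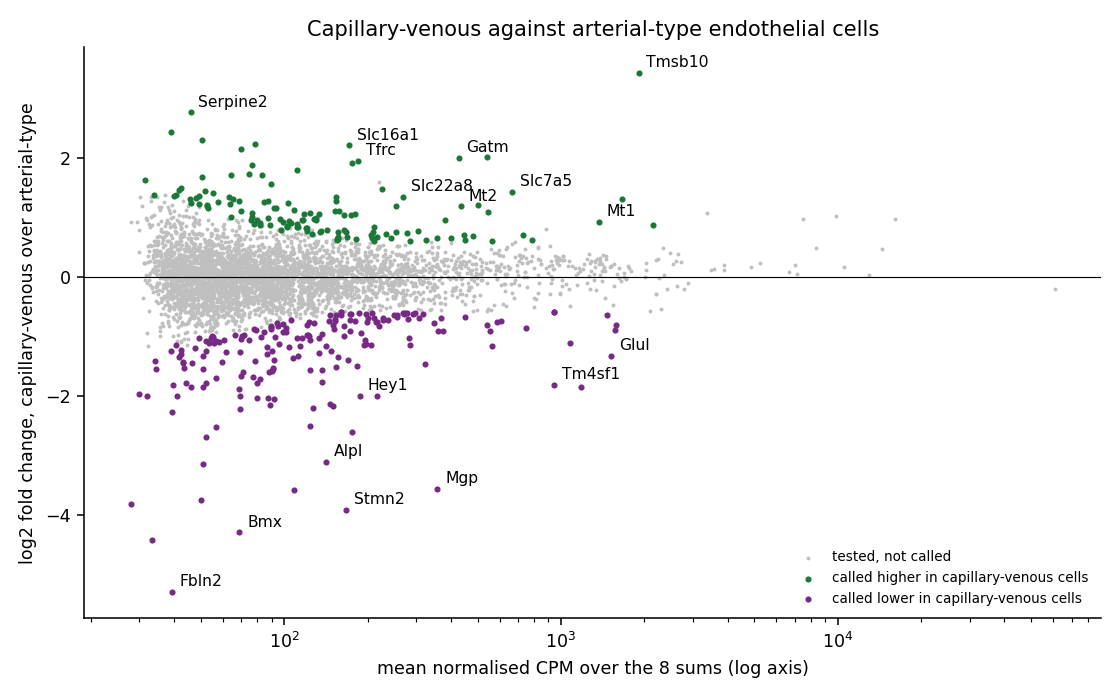
Log2 fold change of capillary-venous over arterial-type cells (vertical axis) against the mean normalised CPM over the 8 sums (horizontal log axis), 1 point per tested gene. The 129 genes called higher are green and the 193 called lower are purple; Tmsb10 is the uppermost point at 3.42 and Fbln2 the lowest at -5.30.

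The capillary list covers the first part of the cells' name with genes outside the rule, but it was chosen with earlier results known. Of its 12 genes, 2 had chosen the cells and the other 10 were tested: 6 were called higher, 0 lower, and their median log2 fold change was 0.63. Slc16a1 (chr3:104638668-104658462, plus strand) stood at 342, 225, 269 and 314 CPM in capillary-venous cells and at 42.9, 64.3, 39.2 and 79.3 CPM in arterial-type cells. The groups did not overlap, and the log2 fold change was 2.21 ± 0.23 (SE, n = 4 animals, edgeR adjusted p = 3.52e-09). Tfrc (chr16:32608920-32632794, plus strand) was at 232, 296, 288 and 351 CPM against 71.5, 71.4, 78.3 and 87.3 CPM (log2 fold change 1.95, edgeR adjusted p = 5.69e-09). Rgcc, a regulator of the cell cycle that is high in capillary endothelium, and Kdr, the main receptor of VEGF, rose by less, with log2 fold changes of 0.61 and 0.65. Kdr lost its call without no inhibitors 1 or inhibitors 1 (log2 fold change 0.54 and 0.51). Mfsd2a, the carrier of lysophosphatidylcholine that also limits transcytosis, averaged 263 ± 23.1 CPM against 220 ± 7.0 CPM (SD, n = 4) and was not called (log2 fold change 0.27, edgeR adjusted p = 0.368). Cxcl12, a chemokine, averaged 1400 and 1371 CPM and was not called.

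For the venous part of the name fewer genes were called against arterial-type cells. Of the 12 venous genes, 1 had chosen the cells and 6 of the others were abundant enough to test. The list's median log2 fold change was 0.23. Of these, 2 were called higher and 0 lower. One was Ctsc, a lysosomal protease, with a log2 fold change of 1.44 ± 0.40 (SE, n = 4 animals). It lost its call in 6 of 14 alternatives: without inhibitors 1, inhibitors 2 or no inhibitors 1 (1.02, 1.55 and 1.37), with DESeq2 (adjusted p = 0.169), in cells of 1000 to 5000 UMIs, and without the deepest cells. Vwf, von Willebrand factor, averaged 132 ± 32.1 CPM against 151 ± 68.6 CPM (SD, n = 4), with overlapping groups (edgeR adjusted p = 0.625). Vcam1, an adhesion molecule for leukocytes, was at 21.4, 88.4, 24.0 and 94.6 CPM against 0, 164, 39.2 and 135 CPM, and was not called. Ephb4, the venous ephrin receptor, averaged 76.8 and 83.5 CPM and was not called either. Nr2f2, the venous transcription factor, was seen in 8.35% of members and 5.22% of arterial-type cells and fell under the filter on low counts, beside 6.47% of cells outside the endothelial rule. Among genes that the rule did not use, 6 of 10 tested capillary genes and 2 of 6 tested venous genes were therefore called higher. Both lists were chosen with earlier results of these data known, so these counts are not an independent check of the name.

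Many carriers of small solutes were higher. Of 26 listed, 3 belonged to the rule and 21 were tested: 10 were called higher, 1 lower, and the median log2 fold change was 0.65. The large neutral amino acid transporter is a pair of proteins, and both of its genes rose. Slc7a5, its light chain LAT1, was at 1074, 949, 990 and 927 CPM against 386, 429, 157 and 428 CPM (log2 fold change 1.43 ± 0.15, edgeR adjusted p = 2.36e-06). Slc3a2, its heavy chain, was at 718, 854, 730 and 652 CPM against 357, 343, 353 and 349 CPM (log2 fold change 1.08 ± 0.11, edgeR adjusted p = 1.93e-09). In both genes every capillary-venous sum lay above every arterial-type sum.

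Organic anion carriers split. Slc22a8 (OAT3) was at 425, 336, 406 and 390 CPM against 114, 157, 170 and 151 CPM, a log2 fold change of 1.34, and Slco2b1 rose by 1.24. Slco1c1, the carrier of thyroxine, averaged 913 ± 61.9 CPM against 938 ± 102 CPM (SD, n = 4; log2 fold change -0.03, edgeR adjusted p = 0.928). The metal carriers Slc40a1 (ferroportin, the iron exporter) and Slc39a8 (an importer of zinc and manganese) had log2 fold changes of 1.19 and 1.71. The glutamate carrier Slc1a1, the glutamine carrier Slc38a3 and the orphan carrier Slc16a4 had 1.05, 1.04 and 0.82.

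Glucose and taurine carriers went the other way or did not pass. Slc2a1, the glucose carrier GLUT1, was at 1936, 2260, 1972 and 1764 CPM against 2517, 2422, 2141 and 2594 CPM. Its log2 fold change of -0.29 was under the size limit, although the edgeR adjusted p was 0.0482. Slc6a6, the taurine carrier, fell by 0.82 on the log2 scale, with 1147 ± 62.1 CPM against 2023 ± 207 CPM (SD, n = 4; edgeR adjusted p = 1.12e-08). Against all other endothelial cells its log2 fold change was -0.16 and it was not called.

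**Figure D2:**
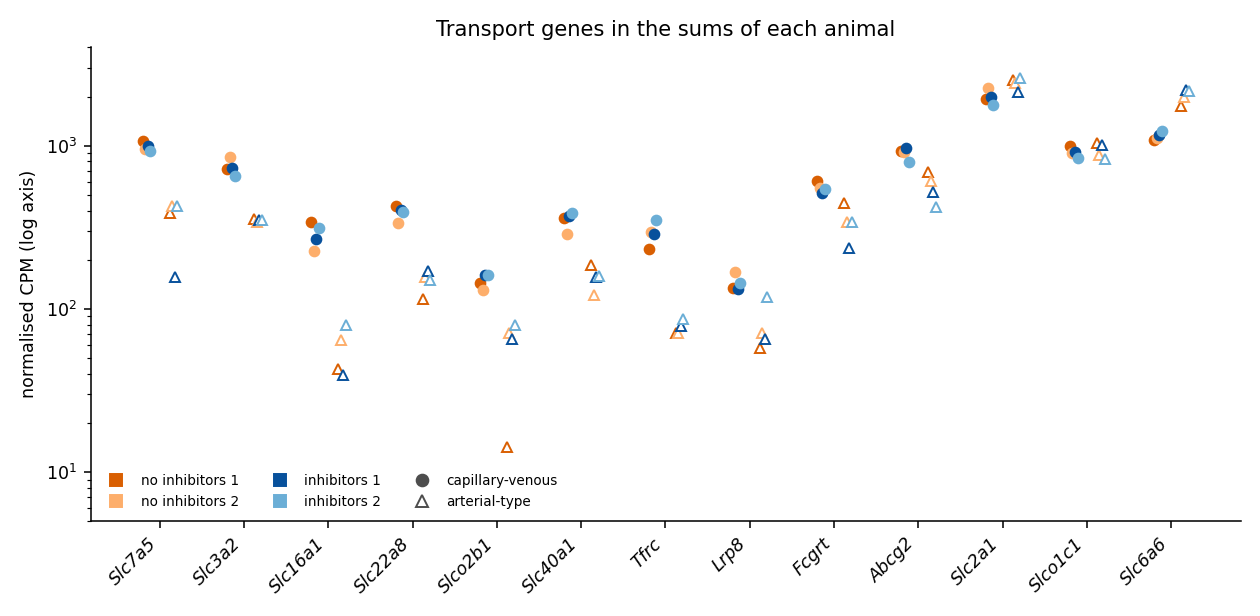
Normalised CPM (vertical log axis) of 13 transport genes in the sums of each animal, as filled circles for capillary-venous and open triangles for arterial-type cells, coloured by animal. Circles lie above all triangles from Slc7a5 to Abcg2, overlap with them for Slc2a1 and Slco1c1, and lie below them for Slc6a6.

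Receptors for large cargo followed the carriers. Of 17 listed, 8 were tested and 3 were called higher, at a median log2 fold change of 0.48. Besides Tfrc these were Fcgrt, the neonatal Fc receptor that handles immunoglobulins (0.70, edgeR adjusted p = 6.95e-05, not called in 3 of 16 alternatives, at 0.45 to 0.51), and Lrp8, a lipoprotein receptor (0.85, edgeR adjusted p = 0.0239). Lrp8 lost its call in 7 of the 16 alternative analyses, among them those without inhibitors 1, no inhibitors 1 or no inhibitors 2, where its log2 fold change was 0.82, 0.80 and 0.67. Tfrc was called in all 16. Of the efflux pumps, 4 of 9 were tested: Abcg2 (BCRP) rose by 0.71 on the log2 scale, the cholesterol exporter Abca1 fell by 1.45, and the other 2 were not called. Abcg2 came out under the size limit in 3 of 16 alternatives (0.54 to 0.58) and lost its call there.

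Both widely expressed metallothioneins, small proteins that bind zinc and copper, were higher. Mt1 was at 1992, 1701, 1642 and 1847 CPM against 1015, 936, 757 and 1087 CPM (log2 fold change 0.92 ± 0.10, edgeR adjusted p = 3.52e-09). Mt2 was at 726, 501, 527 and 642 CPM against 400, 207, 235 and 246 CPM (1.18 ± 0.13, edgeR adjusted p = 6.62e-09). Neither was called against all other endothelial cells, that is the 134 arterial-type cells together with the 675 other cells of the endothelial rule. The edgeR adjusted p was then 0.966 for Mt1 and 0.206 for Mt2. Of the 11 tested genes on the glucocorticoid and metal list, these 2 were called higher and Txnip, a brake on glucose uptake, was called lower.

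Tmsb10, thymosin beta 10, a binder of actin monomers, differed most among the genes higher in capillary-venous cells. It was at 3357, 3139, 3908 and 3550 CPM against 515, 400, 131 and 270 CPM, a log2 fold change of 3.42 ± 0.40 (SE, n = 4 animals, edgeR adjusted p = 0.0277). Without no inhibitors 2 or inhibitors 2 the log2 fold change was 3.65 or 3.33 and the edgeR adjusted p was 0.125 or 0.0882, so the size held and the call was lost with fewer animals. Serpine2, a protease inhibitor, was at 80.1, 89.9, 77.4 and 83.1 CPM against 0, 28.6, 0 and 7.93 CPM. Against all other endothelial cells, however, Serpine2 had a log2 fold change of 0.03 and was not called. Gatm, the first enzyme of creatine synthesis, averaged 680 ± 68.5 CPM against 172 ± 49.3 CPM (SD, n = 4; log2 fold change 2.01, edgeR adjusted p = 2.49e-13). Ctla2a, an inhibitor of cathepsins, had nearly the same fold, 2.01. Ddc, the aromatic amino acid decarboxylase, which breaks down L-DOPA at the barrier, averaged 119 ± 22.2 CPM against 34.1 ± 16.0 CPM (SD, n = 4).

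Others among the 15 genes with the largest positive fold were Rnase4, Ttyh2, Actn1, Net1, Tiam1, Sema6a and Dusp6, with log2 fold changes between 1.71 and 2.44. Against all other endothelial cells Rnase4 and Dusp6 had 0.51 and 0.57 and were not called. DESeq2 did not call those 2 either, and with no marker of another cell type allowed Dusp6 and Sema6a lost their calls. They include Actn1, an actin crosslinker, Net1 and Tiam1, which activate small GTPases, Sema6a, a semaphorin, and Dusp6, a phosphatase of ERK.

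Arterial genes outside the rule were lower. Of 24 listed, 5 had chosen the cells and 14 were tested: 12 were called lower, 0 higher, at a median log2 fold change of -1.80. Stmn2, a regulator of microtubules known from neurons and also found in arterial endothelium, was at 26.7, 20.6, 14.7 and 20.4 CPM against 300, 314, 353 and 286 CPM (log2 fold change -3.92 ± 0.24, edgeR adjusted p = 8.22e-16). The other 7 neuronal markers did not reach the filter. Bmx, a tyrosine kinase of arterial endothelium, was at 8.01, 1.47, 3.69 and 11.5 CPM against 129, 121, 157 and 119 CPM. Alpl, alkaline phosphatase, fell by 3.12, and Glul, glutamine synthetase, fell by 1.33 on the log2 scale.

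Fbln2, which encodes the matrix protein fibulin-2, had the largest negative fold of all called genes. It was at 0, 0, 5.53 and 1.28 CPM against 57.2, 71.4, 91.4 and 87.3 CPM (log2 fold change -5.30 ± 0.50, SE, n = 4 animals, edgeR adjusted p = 2.51e-10). Eln, elastin, was at 5.34, 17.7, 9.22 and 7.67 CPM against 71.5, 143, 65.3 and 87.3 CPM. Mgp, matrix Gla protein, was uneven, with 13.4, 183, 11.1 and 26.8 CPM against 143, 1329, 535 and 619 CPM, so that the groups overlapped although each animal had less of it in capillary-venous cells. Mgp lost its call in 3 of 16 alternatives, among them the one without no inhibitors 1 (log2 fold change -3.55, edgeR adjusted p = 0.0942). The rest of the 15 with the largest negative fold were Cdh13, Gper1, Lypd1, Egfl8, Msx1, Cdk19, Mylk, Eps8l2 and Nuak1, at log2 fold changes from -4.42 to -2.26. Smooth muscle markers, of which Mylk is one, summed to 116 to 330 CPM in arterial-type cells against 37.4 to 47.3 CPM in members, and pericyte markers to 343 to 971 against 170 to 258 CPM; their part in these genes was not tested.

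Among 23 tested genes of the VEGF, Notch and BMP pathways, 3 were called higher and 6 lower, at a median log2 fold change of -0.29. On the Notch side the receptor Notch1 (-1.05), its ligands Jag1 (-1.12) and Jag2 (-0.88) and the target Hey1 (-2.0) fell, and so did the arterial ligand Efnb2 (-1.78) and the BMP inhibitor Smad6 (-2.01). Hey1 was at 74.8, 88.4, 55.3 and 70.3 CPM against 343, 229, 339 and 301 CPM. The 3 genes that rose were Kdr, its co-receptor Nrp1 (0.94) and another Notch target, Hes1 (0.68).

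The Wnt and beta-catenin pathway maintains the barrier. Of its 18 tested genes 1 was called in each direction, and the median log2 fold change was -0.02. Nkd1, a feedback inhibitor induced by the pathway, was at 326 ± 70.8 CPM against 126 ± 78.1 CPM (SD, n = 4), higher in 4 of 4 animals although the groups overlapped (log2 fold change 1.48 ± 0.20, edgeR adjusted p = 1.07e-06). Sox17, a transcription factor high in arteries, fell by 0.77, and was not called against all other endothelial cells (log2 fold change -0.19). Lef1, Axin2 and Fzd4, a transcription factor, a feedback inhibitor and a receptor of the pathway, were not called, with log2 fold changes of 0.35, -0.21 and 0.37.

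None of 10 tested junction genes was called, and their median log2 fold change was 0.04. Esam, an adhesion molecule of endothelial junctions, came nearest, with a log2 fold change of 0.34 under the size limit (edgeR adjusted p = 0.0284). Of 15 tested genes of MHC class I and the interferon response, H2-D1 (-0.58) and Ifitm3 (-0.64) were called lower and 0 higher. Of 8 tested basement membrane genes only Sparcl1, a secreted matrix protein, was called, at 0.62. In the astrocyte marker list, Aldoc and Cpe were called higher and Clu lower.

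Members were not uniform, and members with and without a detected Slc38a5 transcript differed in other genes. The 306 members with a Slc38a5 UMI were compared with the 640 without, within each animal. The split was chosen after the data were seen and one of its sides is set by a gene of the rule, so it is a description with no test. Members with Slc38a5 were deeper, with a median of 2523 against 1872 UMIs. Of 6747 other genes with at least 40 UMIs in members, 8.27% were higher in members with Slc38a5 in 4 of 4 animals and 8.49% were lower in 4 of 4.

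Venous genes gathered on the Slc38a5 side. Of 9 venous genes with enough UMIs, 5 were higher in all 4 animals and 0 lower, at a median ratio of 1.83 against 1.03 over all genes. Nr2f2 was at 53.2, 87.8, 49.1 and 79.4 CPM with Slc38a5 and at 19.0, 17.9, 15.2 and 33.8 CPM without, so every value with it exceeded every value without it. Vcam1 was at 35.5, 249, 49.1 and 139 CPM against 9.49, 17.9, 0 and 67.6 CPM. Vwf and Icam1, another adhesion molecule, had pooled ratios of 1.79 and 1.83. Lcn2, which encodes an iron-binding protein induced in inflamed endothelium, was higher in all 4 animals as well but had only 34 UMIs and stayed under the minimum.

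Arterial and some capillary genes gathered on the other side. Of 16 arterial genes with enough UMIs, 6 were lower in all 4 animals and 0 higher, at a median ratio of 0.81. The arterial list holds 5 genes of the rule, which were not taken out of this count or this median. None of them was among the 6 lower genes, which were Hey1, Stmn2, Dll4, Glul, Sox17 and Tsc22d1. Hey1 was at 11.8, 34.2, 49.1 and 36.4 CPM with Slc38a5 and at 123, 105, 64.5 and 92.9 CPM without. Cxcl12, which had not differed between capillary-venous and arterial-type cells, was at 775, 1122, 929 and 1085 CPM with Slc38a5 and at 1613, 1708, 1529 and 1859 CPM without. Of the 12 capillary genes 3 were higher (Slc16a1, Slc22a8 and Car4, the last of which belongs to the rule) and 4 lower in all 4 animals (Mfsd2a, Slc7a5, Rgcc and Cxcl12). Carriers leaned to the Slc38a5 side, with 9 of 24 higher and 3 lower in 4 of 4 animals, although the differences were small: the pooled ratio was 1.14 for Slc2a1 and 0.94 for Slc7a5. The carrier list holds 3 genes of the rule, and none of these was among the 9 higher or 3 lower.

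**Figure D3:**
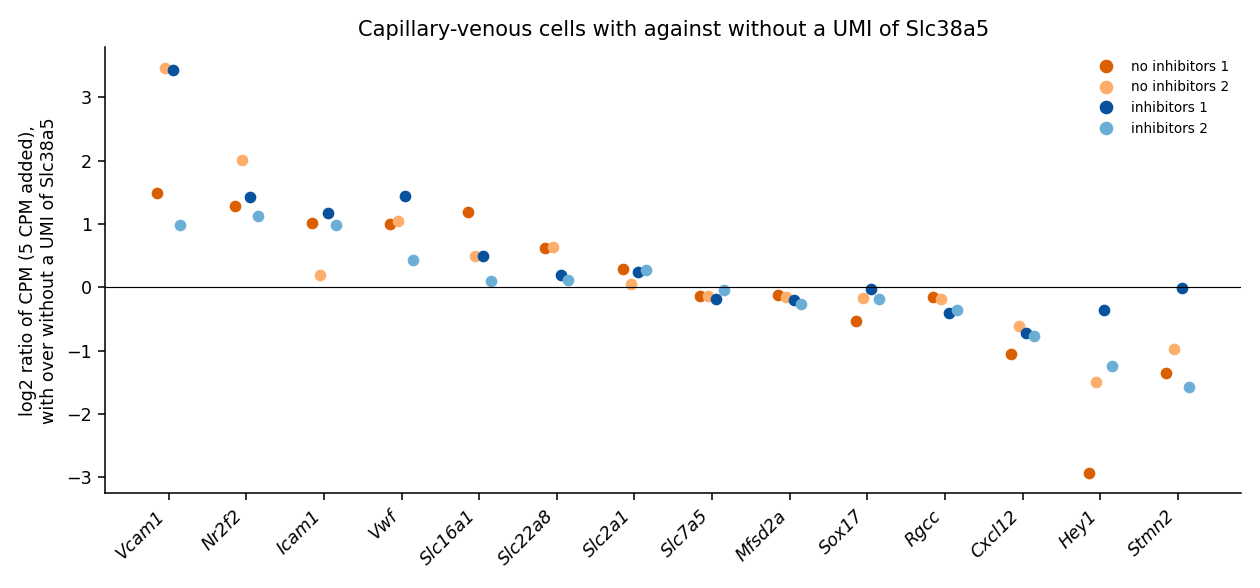
Log2 ratio of CPM in members with over members without a Slc38a5 UMI (vertical axis, 5 CPM added to each), for 14 genes and coloured by animal. All points of Vcam1, Nr2f2, Icam1 and Vwf lie above 0 and all points from Slc7a5 to Stmn2 lie below it.

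Dissociation without inhibitors was then compared with dissociation under inhibitors, to ask whether capillary-venous cells change their transcripts while the tissue is handled. Few genes differed at this depth. Of 7004 genes tested with edgeR, 2 were called, both higher without inhibitors, and 0 lower, which is 0.0286% of genes tested. At an unadjusted p under 0.05 there were 406 genes, and DESeq2 on the same sums called 0 in either direction, with 31 at an unadjusted p under 0.05. Leaving out no inhibitors 1, no inhibitors 2, inhibitors 1 or inhibitors 2 gave 29, 7, 15 and 13 genes called higher and 14, 1, 4 and 2 called lower. The edgeR p-values rest on the spread between these 4 animals, but mostly as estimated over all genes. Each gene's own spread had 2 degrees of freedom, against a median of 23.2 borrowed from all genes.

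Clu (chr14:65968483-65981547, plus strand), which encodes the chaperone clusterin, was at 157 and 187 CPM without inhibitors and at 78.7 and 91.0 CPM with them. The groups did not overlap, and the log2 fold change was 1.03 ± 0.18 (SE, n = 2 per group, edgeR adjusted p = 0.0331). Clu is also an astrocyte marker and an arterial gene, and it was called lower in members than in arterial-type cells. In arterial-type cells it was at 319 and 393 CPM without inhibitors and at 144 and 152 CPM with them. This had a log2 fold change of 1.29 and was not called (edgeR adjusted p = 0.246). The difference of the inhibitor effect on Clu between the cell types was -0.29 on the log2 scale and not called. Of the 8 astrocyte markers tested 6 had positive log2 fold changes, at a median of 0.22, and Clu alone was called. Aldoc and Cpe had 0.63 and 0.55 (edgeR adjusted p = 0.804 for both). With no marker of another cell type allowed in a cell, the log2 fold change of Clu was 0.59 and it was not called (edgeR adjusted p = 0.840). In members without any haemoglobin UMI, Clu was at 117 and 152 CPM against 74.0 and 106 CPM.

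Alas2, the erythroid enzyme that starts haem synthesis (chrX:150547375-150570638, plus strand), was at 58.6 and 103 CPM without inhibitors and at 31.1 and 26.5 CPM with them (log2 fold change 1.59 ± 0.29, SE, n = 2 per group, edgeR adjusted p = 0.0441). Of its 130 UMIs in members, 129 lay in the 481 members that also held a UMI of 1 of 4 haemoglobin genes, and 1 in the 465 members without. Members with a haemoglobin UMI made up 60.2% and 75.6% without inhibitors and 29.2% and 39.1% with them. Over the 6 erythrocyte genes the median log2 fold change was 1.5. With erythrocyte and choroid plexus genes removed from the table, 1 gene of 6994 was called, and Clu kept its call. Without the animal no inhibitors 2, Alas2 and Clu had log2 fold changes of 1.04 and 0.87 and neither was called (edgeR adjusted p = 0.738 and 0.195). Over the alternatives the adjusted p ran from 1.89e-07 to 1.00 for Alas2, which lost its call in 8 of 15, and from 1.67e-05 to 1.00 for Clu, which lost it in 7 of 16.

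Other genes among the 5 smallest p-values were not called. Nr1d1, a repressor in the circadian clock, was at 56.0 and 75.1 CPM against 27.4 and 24.0 CPM (log2 fold change 1.41 ± 0.30, edgeR adjusted p = 0.125, SE, n = 2 per group). In members without haemoglobin UMIs it was at 58.7 and 65.3 CPM against 24.7 and 27.8 CPM, on 8, 9, 8 and 11 UMIs. None of the 10 circadian genes tested was called, and their median log2 fold change was 0.07. Mbp, the myelin basic protein of oligodendrocytes, was at 392 and 333 CPM against 496 and 598 CPM (-0.62, edgeR adjusted p = 0.125). Both were called without no inhibitors 1 and without inhibitors 1, at log2 fold changes of 1.56 and 1.5 for Nr1d1 and -0.72 and -0.73 for Mbp.

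Immediate-early genes are transcribed within minutes of a stimulus. Of the 18 of 26 that could be tested 0 were called, and the median log2 fold change was -0.21, beside -0.00074 over all genes tested. The CPM of 2 of them lay wholly higher without inhibitors and 4 wholly lower, beside 17.4% and 17.6% of all tested genes. Jun was at 299 and 233 CPM without inhibitors and at 260 and 257 CPM with them. Junb was at 61.3 and 84.0 CPM against 75.0 and 128 CPM, and Dusp1, a phosphatase of MAP kinases, at 253 and 140 against 284 and 226 CPM. In each of these 3 genes the groups overlapped.

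Fos, the canonical immediate-early gene, was nearly silent in members. It had 2, 6, 0 and 4 UMIs, in 10 of 946 members, and did not reach the filter. Egr1 had 0, 5, 1 and 1 UMIs, and Fosb 0, 3, 0 and 0. Of the 25 activation genes that the study defined on sorted microglia, 14 were tested, 0 were called and their median log2 fold change was -0.20. Heat shock genes (11 tested, median -0.11) and flow-responsive Klf genes and their targets (7 tested, median -0.05) had 0 calls as well. Klf2, the flow-induced transcription factor that keeps endothelium quiescent, was among the more abundant transcripts at 2993 and 2271 CPM without inhibitors and 3035 and 2754 CPM with them.

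**Figure D4:**
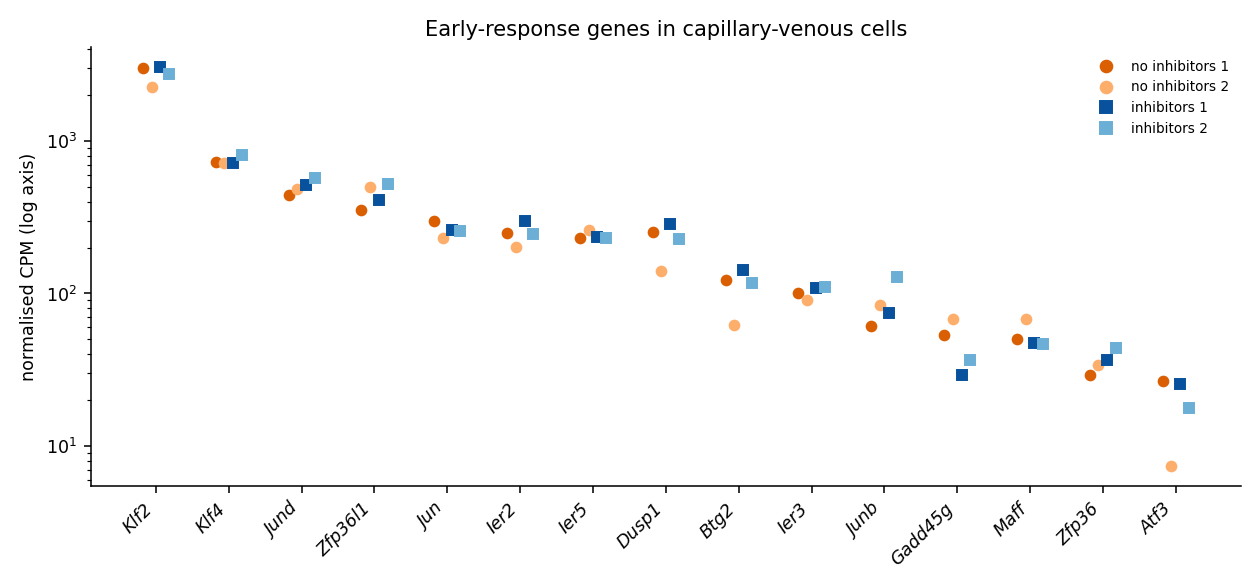
Normalised CPM (vertical log axis) of 15 early-response and Klf genes in capillary-venous cells, with circles for the 2 animals without inhibitors and squares for the 2 with inhibitors. The groups interleave for most genes; Gadd45g and Maff lie higher without inhibitors and Jund, Ier3 and Zfp36 higher with them, and none was called.

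Activation genes were also counted per cell. Members with at least 1000 UMIs, thinned to that number, held on average 5.42 and 4.63 UMIs of the 25 activation genes without inhibitors and 5.73 and 5.55 with them. The difference of -0.61 UMIs per cell had an exact two-sided permutation p of 0.333, the smallest that 2 animals against 2 allow. At 750 and 1500 UMIs per cell the differences were -0.20 and -1.06 (exact permutation p = 1.0 and 0.667), and with no marker of another cell type allowed it was -0.29 (exact permutation p = 1.0), so the groups overlapped in these 3 settings. Arterial-type cells held 6.46 and 4.76 against 7.83 and 5.90.

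Among genes of vessel identity, none of the 10 tested capillary genes, 9 venous genes or 22 carriers was called, and their median log2 fold changes were -0.05, -0.16 and -0.08. Of the 12 tested arterial genes only Clu was called. Car4, as a gene of the rule, is given without a test: it was at 1582 and 1558 CPM of all UMIs without inhibitors and at 1858 and 1502 CPM with them. Of the VEGF, Notch and BMP genes, junction genes, basement membrane genes and Wnt genes, 0 of 24, 10, 11 and 18 tested were called.

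Whether the inhibitors acted differently on capillary-venous and arterial-type cells was tested as an interaction. Of 5287 genes, 0 were called (0.0%) and 235 had an unadjusted p under 0.05. DESeq2 also called 0. The smallest edgeR adjusted p was 0.0579, for Mgp, which was uneven between animals in both cell types. Its log2 size was 1.92 ± 0.35 (SE), and it passed without no inhibitors 1, inhibitors 1 or inhibitors 2 (1.96, 1.62 and 2.58) but changed sign in the 2 alternatives that leave out the deepest cells (-2.13 and -1.70). Without inhibitors 2, Tmsb10 passed as well, at -2.11.

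Junb and Fos are given here because they are the early genes in which the cell types looked least alike, and they were chosen after their values were seen. In arterial-type cells Junb had 10 and 19 UMIs without inhibitors and 3 and 5 with them. The interaction had a log2 size of -2.32 ± 0.57 (SE) at an unadjusted p of 0.000382 from edgeR, and the edgeR adjusted p was 0.340. Fos had 13 and 18 UMIs in arterial-type cells without inhibitors, all in 7 of 134 cells, and 0 with them. This was at least 9.15-fold higher without inhibitors, taking 3 counts over the group as the floor, and the edgeR adjusted p of the interaction was 1.00. A difference between the cell types was therefore not shown for either gene at this depth. With inhibitors compared in arterial-type cells alone, neither was called (edgeR adjusted p = 0.178 for Fos and 0.542 for Junb).

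Members made up 52.8% of the endothelial cells in no inhibitors 1 (exact 95% binomial interval 47.2 to 58.3%) and 49.7% in no inhibitors 2 (45.3 to 54.1%). With inhibitors the shares were 60.9% (55.4 to 66.3%) and 54.4% (50.3 to 58.5%). The means were 51.2% ± 2.17 and 57.7% ± 4.63 (SD, n = 2), a difference of -6.42 percentage points with no overlap and an exact two-sided permutation p of 0.333, again the smallest possible. Intervals cover counting error only. The share counts cells recovered after dissociation, and fewer cells of this kind and fewer detected genes per cell cannot be told apart in it.

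**Figure D5:**
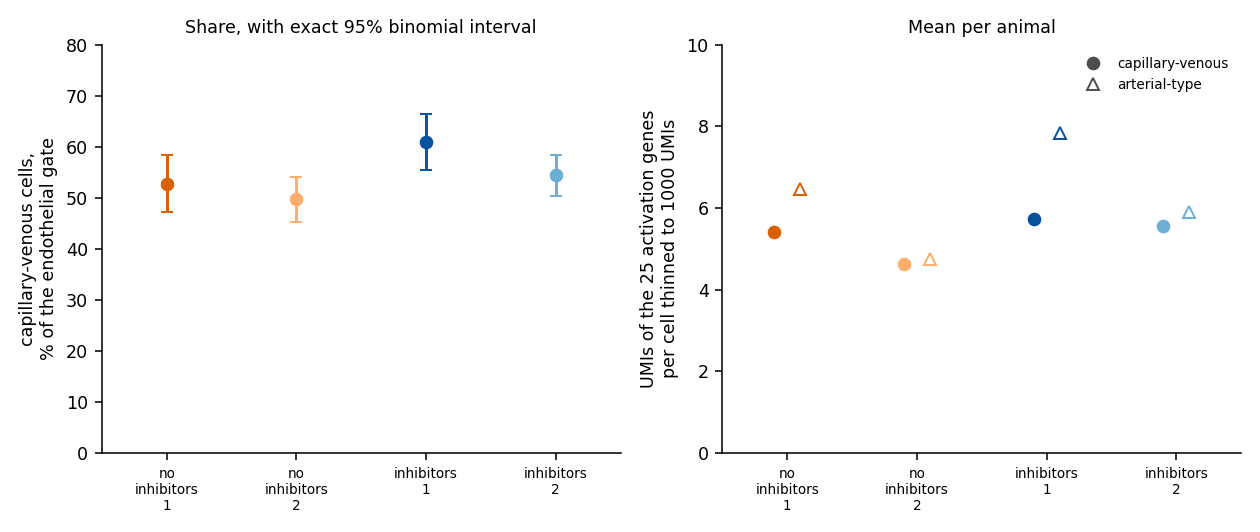
Left, capillary-venous cells as a percentage of the endothelial rule in each animal, with exact 95% binomial intervals. Right, mean UMIs of the 25 activation genes per cell thinned to 1000 UMIs, as filled circles for capillary-venous and open triangles for arterial-type cells; circles lie between 4.63 and 5.73.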

How the data were processed

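The authors deposited raw UMI counts per gene and barcode for each of the 4 libraries (10x Genomics 3′ chemistry, version 2), made with Cell Ranger 3.0.0 on mm10 (Ensembl 93 annotation). The deposited barcodes and gene names were used as given, and the authors' later cell filtering and doublet removal were not applied. Gene counts of reads that could map to near-identical copies depend on that counting.

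Members were chosen by the rule in the opening paragraph, and the members and the 32 gene lists (389 symbols, 10 without a row) were chosen with earlier results of these data known. No doublet caller was run. Cells with over 1 marker of another cell type were left out, and the cells with the most UMIs were left out as an alternative. UMI counts were summed per animal and cell type and tested with the robust quasi-likelihood F test of edgeR 4.0.16 (R 4.3.3; low counts removed by filterByExpr, TMM scaling), leaving out the 26 genes of the rule. The comparison of inhibitors had the group alone as a term, and the others had the animal as a block. SE is the absolute log2 fold change over the square root of F. DESeq2 1.42.0 and 15 or fewer further alternatives were tried per comparison. Scripts were tested on simulated data. Thinning used 1000 UMIs per cell. Python 3.11.15 with numpy 2.4.6 and scipy 1.17.1 was used.

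Genes were named by a rule: with inhibitors, called genes with groups that did not overlap and the 5 of smallest p; against arterial-type cells, the 15 called genes with the largest fold in each direction that moved alike in 4 of 4 animals; and members of lists. Some genes that this rule names are not reported here. Replicate numbers were not taken to pair animals, since the labels tie them to nothing shared and with 2 pairs their deviations correlated at -0.021 across genes.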

Additional observations from a re-analysis of the deposited data

Results flagged for a closer look

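Within-animal log2 ratios of capillary-venous to arterial-type CPM (5 CPM added) were checked in the 30 genes of largest fold for an animal far from the other 3, by Dixon's test at its 95% critical value. Chance gives such a gap in about 1 of 20 genes, and 4 of 30 had one. Rnase4 had a ratio of 3.81 in inhibitors 2, where arterial-type cells had 0 CPM, against 1.63 to 1.83 in the other 3. Ddc had 1.16 in no inhibitors 1 against 1.87 to 1.99. Cdh13 had -2.79 in no inhibitors 2 against -3.32 to -3.26. Msx1 had -1.56 in no inhibitors 1 against -2.60 to -2.44. In each gene the direction was the same in 4 of 4 animals, and the cause was not tested.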

How the results depend on the processing

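Depth limited the arterial-type sums most, and low genes there were measured on a handful of UMIs. Genes higher without inhibitors, 2 as reported, numbered 0 with DESeq2, 1 with RLE size factors, 0 with total UMIs alone, 11 without a filter on low counts, 0 with 0 markers of other cell types allowed, 0 in cells of 1000 to 5000 UMIs, 1 without the 5% of cells with most UMIs, 1 without erythrocyte and choroid plexus genes, and 7 to 29 with an animal left out. Genes lower, 0 as reported, numbered 3 without a filter, 1 with 0 markers allowed, 1 without the deepest cells, and 1 to 14 with an animal left out. The 129 genes higher than in arterial-type cells became 37 with DESeq2, 254 without a filter, 218 with at least 20 UMIs, 50 with 0 markers allowed, 72 in cells of 1000 to 5000 UMIs, and 83 to 122 with an animal left out, the fewest without no inhibitors 2. The 193 lower became 97 with DESeq2, 101 with 0 markers allowed, 319 against all other endothelial cells, and 142 to 188 with an animal left out. DESeq2's calls shared 132 genes with those reported, 98.5% of its own and 41.0% of those reported. Against all other endothelial cells 156 genes were higher, and 136 calls were shared, 28.6% of that comparison's and 42.2% of those reported. For the interaction, 0 as reported, genes higher numbered 1 with total UMIs alone, 1 without a filter, 1 with at least 20 UMIs, 2 in cells of 1000 to 5000 UMIs and 1 to 2 with an animal left out, and genes lower numbered 3 without a filter, 3 with at least 20 UMIs and 4 to 9 with an animal left out. The interaction of Mgp reversed in cells of 1000 to 5000 UMIs (-2.13) and without the deepest cells (-1.70). The cause was not tested in any of these.

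The replicate numbers share no more than a number. With the replicate block, the comparison of inhibitors gave 0 genes higher and 0 lower. The difference in the share of endothelial cells kept its sign in all alternatives, from -9.69 to -3.15 points with an animal left out. Without the 5% of cells with most UMIs the shares were 53.4% and 49.8% without inhibitors. With inhibitors they were then 60.0% and 52.8%, so the groups overlapped in that setting (exact permutation p = 0.667). Removing erythrocyte and choroid plexus genes, and the splits by Slc38a5 and haemoglobin, were chosen after seeing the data.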
